A study of Homo sapiens with 16 samples.

Results

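The 4 genes TNFRSF19, ZBED2, FGB and RHOJ, of 25369 genes in the count table, were described in TPC1 and K1 cells treated with GSK2830371, an inhibitor of the phosphatase PPM1D. They were chosen from the same data as well-expressed genes with the deepest falls under GSK2830371 alone, TNFRSF19, ZBED2 and FGB in TPC1 and RHOJ in K1. Both are cell lines from human papillary thyroid carcinoma that carry wild type p53, and K1 derives from the line GLAG-66. RNA was sequenced from each line after 24 h in vehicle (0.2% DMSO), 10 µM nutlin-3a (nutlin, which blocks the binding of p53 by MDM2), 25 µM GSK2830371, or both drugs, called the combination here. Each of these 8 groups had 2 libraries, 16 in all, prepared independently per the study's methods. TPC1 cells were grown in RPMI and K1 cells in DMEM, so the effects of line and medium cannot be told apart.

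The 16 libraries held 28888686 to 76648552 counts, and levels are given as CPM, a gene's share of its library's counts set to a common total, with library composition adjusted by TMM factors of 0.961 to 1.05. CDKN1A and MDM2, direct targets of p53, were upregulated by nutlin in TPC1 (log2 fold changes 5.61 and 4.96) and in K1 (3.16 and 3.05). Of 8 thyroid markers, PAX8 was at 291 to 459 CPM in TPC1 and 750 to 847 CPM in K1, FOXE1 was at 22.0 to 38.5 CPM in both lines, and TSHR had 0 counts in every library. NKX2-1 had 0 counts in TPC1 and at most 10 counts in a K1 library. A gene was tested in a line where it passed 0.1 CPM in at least 2 libraries, which left 15273 genes in TPC1 and 15900 in K1, and it was called where the adjusted p was under 0.05 and the fold change above 1.5. TNFRSF19 and ZBED2 were tested in both lines, FGB in TPC1 alone and RHOJ in K1 alone.

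The 4 genes belong to different pathways. TNFRSF19, also known as TROY, is a cell surface receptor of the tumor necrosis factor (TNF) receptor superfamily that recruits TRAF adaptors, signals to JNK and NF-κB, and is known as a target of Wnt/β-catenin signaling in stem cell compartments. ZBED2 is a zinc finger transcription factor known to repress interferon response genes that IRF1 activates. FGB encodes the β chain of fibrinogen, the clotting protein that the liver assembles from the products of FGA, FGB and FGG and increases in the acute phase through IL-6, C/EBP and HNF1 factors. RHOJ is a small GTPase close to CDC42 and RHOQ, known from endothelial cells, that acts through PAK kinases and other CDC42-type effectors on cell shape and movement.

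On GRCh37, TNFRSF19 lies at chr13:24144509-24250243 (plus strand), ZBED2 at chr3:111311747-111314193 (minus strand), FGB at chr4:155484163-155493959 (plus strand, between PLRG1 and FGA) and RHOJ at chr14:63670832-63760226 (plus strand, between KCNH5 and GPHB5). ZBED2 lies within CD96 on the opposite strand. CD96 had 0 to 20 counts in each library, and reads were counted by strand. The 250 bases before their start sites are shown because the 4 genes were lowered by the same drug. They are RefSeq sequences on GRCh38.p14, written 5′ to 3′ on the gene's strand, with matches to the searched motifs in capitals.
TNFRSF19, first start (chr13:23570162-23570411, plus strand): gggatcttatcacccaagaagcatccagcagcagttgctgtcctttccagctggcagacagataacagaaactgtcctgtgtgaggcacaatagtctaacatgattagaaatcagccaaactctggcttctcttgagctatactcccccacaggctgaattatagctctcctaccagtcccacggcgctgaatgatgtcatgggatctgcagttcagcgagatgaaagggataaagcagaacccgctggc
TNFRSF19, second start (chr13:23579110-23579359, plus strand): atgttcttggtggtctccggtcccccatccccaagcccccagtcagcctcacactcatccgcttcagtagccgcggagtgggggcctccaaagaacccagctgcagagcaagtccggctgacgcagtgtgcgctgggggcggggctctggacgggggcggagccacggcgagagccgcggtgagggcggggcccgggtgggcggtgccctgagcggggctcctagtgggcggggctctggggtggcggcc
ZBED2 (chr3:111595347-111595596, minus strand): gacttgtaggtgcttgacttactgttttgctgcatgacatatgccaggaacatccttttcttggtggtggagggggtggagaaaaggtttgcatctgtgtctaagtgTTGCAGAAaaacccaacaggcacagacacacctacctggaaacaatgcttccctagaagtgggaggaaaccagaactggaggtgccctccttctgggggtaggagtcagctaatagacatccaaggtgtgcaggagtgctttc
FGB, first start (chr4:154562730-154562979, plus strand): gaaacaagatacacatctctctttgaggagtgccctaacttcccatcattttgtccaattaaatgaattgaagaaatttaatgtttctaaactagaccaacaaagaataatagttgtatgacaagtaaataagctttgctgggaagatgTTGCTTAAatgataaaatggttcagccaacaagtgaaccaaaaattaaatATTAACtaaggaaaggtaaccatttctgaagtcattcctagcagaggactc
RHOJ (chr14:63204193-63204442, plus strand): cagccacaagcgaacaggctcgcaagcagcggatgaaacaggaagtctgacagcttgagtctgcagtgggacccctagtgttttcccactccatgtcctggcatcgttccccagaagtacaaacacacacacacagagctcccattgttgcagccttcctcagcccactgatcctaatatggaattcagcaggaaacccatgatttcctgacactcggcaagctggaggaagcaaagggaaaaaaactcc

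Both strands were searched for short motifs. For stress-responsive factors these were TGANTCA, bound by AP-1, the palindrome TGACGTCA, which is the cyclic AMP response element, and TGATGNAA, known as the C/EBP-ATF composite. For factors of the acute phase they were TTGCNNAA, the C/EBP motif, TTCNNNGAA, bound by STAT proteins, and GTTAAT, bound by a monomer of HNF1. Lastly CTTTGAT stood for the TCF/LEF factors downstream of Wnt, and the TATA box was searched with its usual sequence TATAAA. ZBED2 held the C/EBP match TTGCAGAA, which began 143 bases before the start site. FGB held the C/EBP match TTGCTTAA at 101 bases and the HNF1 motif ATTAAC, on the other strand, at 51 bases before its first start site. Its second start site, whose window overlaps the first, had the same matches at 132 and 82 bases. Neither TNFRSF19 window nor the RHOJ window held any of these letters. Over 34788 promoters of the same length, 9.05% held the C/EBP letters and 6.26% those of HNF1, against 6.59% for AP-1, 1.64% for the cyclic AMP element, 3.16% for the composite, 6.57% for STAT, 2.27% for TCF/LEF and 10.8% for the TATA box. None of the motifs was found in the windows of all 4 genes.

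The choice itself rested on GSK2830371 against DMSO, so those differences are given as a description with no test. In TPC1, 104 of 15273 genes (0.681%) were called lower, and 74 of them had a mean of at least 5 CPM in DMSO and replicates that did not overlap between the groups, where 25.5% of all genes had both GSK2830371 libraries below both DMSO libraries. TNFRSF19, ZBED2 and FGB had the 3 lowest log2 fold changes of the 74, at −1.76, −1.64 and −1.64. Just outside were NTRK3, a neurotrophin receptor, at −1.57 and CDH6, a cadherin, at −1.48. In K1, 237 of 15900 genes (1.49%) were called lower and 190 met the same conditions. RHOJ was the first of them at −1.06, ahead of the hyaluronan synthase HAS2 (−1.02), ZNF100 (−0.97), FAM76B (−0.95) and CDH6 (−0.94). Among all genes tested, with those of few counts included, TNFRSF19, ZBED2 and FGB stood at ranks 118, 139 and 141 in TPC1 and RHOJ at rank 275 in K1.

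TNFRSF19 was lower with each drug than with DMSO in TPC1 and lowest with the combination. Its level in TPC1 was 7.79 and 6.50 CPM in DMSO, 4.10 and 4.31 CPM in nutlin, 2.21 and 2.01 CPM in GSK2830371, and 0.830 and 1.42 CPM in the combination. The groups did not overlap, and the order of the means was DMSO, nutlin, GSK2830371, combination. Separation of 2 groups was common in TPC1. Both nutlin libraries lay below both DMSO libraries for 5928 of 15273 genes, and both GSK2830371 libraries did for 25.5%. The mean was 29.6% of the DMSO mean in GSK2830371, 58.8% in nutlin and 15.8% in the combination, with a log2 fold change of −1.76 ± 0.204 (SE) for GSK2830371 alone. In whole cultures, a lower level in every cell and fewer cells that express the gene cannot be told apart.

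ZBED2 was at 10.2 and 11.8 CPM in the DMSO libraries of TPC1, 6.94 and 7.85 CPM in nutlin, 3.03 and 3.88 CPM in GSK2830371, and 2.32 and 4.03 CPM in the combination. Both GSK2830371 groups lay below both other groups, and they overlapped each other. Of all genes tested in TPC1, 25.5% had both GSK2830371 libraries below both DMSO libraries. The combination libraries lay below both nutlin libraries for 30.9%. GSK2830371 alone left 31.5% of the DMSO mean and the combination 29.0%, a difference smaller than the spread of the combination libraries, whereas nutlin alone left 67.5%. The log2 fold change with GSK2830371 alone was −1.64 ± 0.222.

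FGB was at 11.9 and 12.6 CPM in DMSO, 3.40 and 3.65 CPM in nutlin, 3.52 and 4.26 CPM in GSK2830371, and 1.00 and 1.51 CPM in the combination in TPC1. Its nutlin and GSK2830371 libraries overlapped, at 28.8% and 31.8% of the DMSO mean, and the combination lay below both at 10.2%. The log2 fold changes against DMSO were −1.79 ± 0.166 for nutlin, −1.64 ± 0.163 for GSK2830371 and −3.25 ± 0.186 for the combination. FGB was the one of the 3 genes that nutlin alone lowered about as far as GSK2830371 alone did.

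RHOJ in K1 was at 7.21 and 5.37 CPM in DMSO, 3.29 and 3.69 CPM in nutlin, 3.18 and 2.83 CPM in GSK2830371, and 1.08 and 1.69 CPM in the combination. The groups did not overlap, although the DMSO libraries were the widest apart and the nutlin and GSK2830371 libraries differed by little. Of all genes tested in K1, 27.0% had both GSK2830371 libraries below both DMSO libraries, and 32.6% had both nutlin libraries below them. The mean was 47.8% of the DMSO mean in GSK2830371, 55.5% in nutlin and 22.1% in the combination, and the log2 fold change with GSK2830371 alone was −1.06 ± 0.185.

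**Figure D1:**
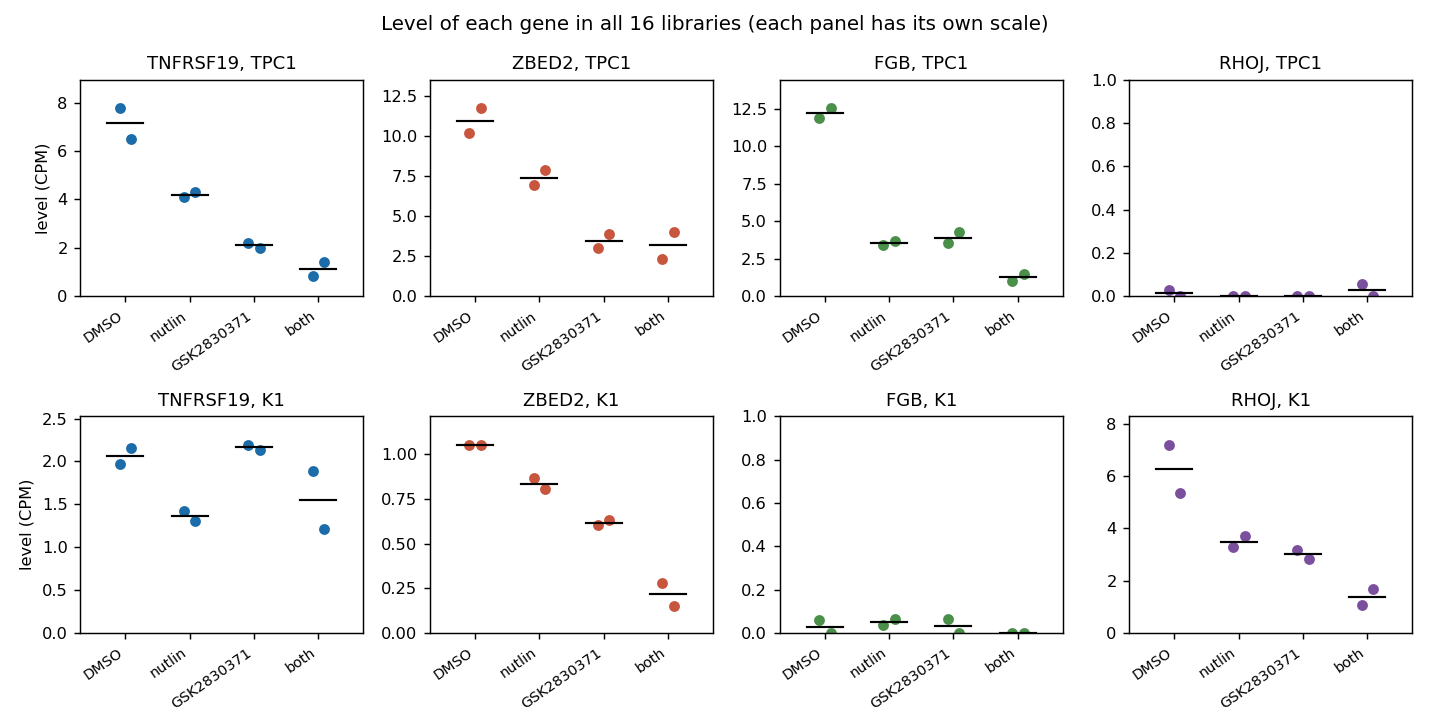
Level in CPM (vertical axis, from 0, each panel with its own scale) of TNFRSF19, ZBED2, FGB and RHOJ in TPC1 (top) and K1 (bottom) cells by treatment, where points are the 2 libraries of a group and the bar is their mean. In the line where a gene was chosen, the DMSO libraries were the highest and the combination mean was the lowest; FGB in K1 and RHOJ in TPC1 had at most 2 counts in a library.

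Whether GSK2830371 lowered these genes with nutlin present was tested by comparing the combination with nutlin alone. Neither group entered the fold changes behind the choice. Both entered the estimate of spread, shared by the 8 libraries of a line, that the calls of lowered genes used. The test was therefore not fully separate from the choice. In TPC1, TNFRSF19, ZBED2 and FGB, the 3 genes of the 4 that were tested, were each called lower, against 5.66% of all genes tested (865 genes). TNFRSF19 was 3.60-fold lower with both drugs than with nutlin (log2 fold change −1.85 ± 0.226 SE, adjusted p = 0.00064, edgeR). FGB was 2.75-fold lower (−1.46 ± 0.197, adjusted p = 0.0011, edgeR) and ZBED2 2.28-fold lower (−1.19 ± 0.229, adjusted p = 0.0056, edgeR). For all 3 genes both combination libraries lay below both nutlin libraries, as they did for 30.9% of all genes tested. Among the 15273 genes, 0.949% had a log2 fold change at or below that of TNFRSF19, 1.69% at or below that of FGB and 2.55% at or below that of ZBED2.

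In K1, RHOJ was 2.51-fold lower with both drugs than with nutlin (log2 fold change −1.33 ± 0.232, adjusted p = 0.0026, edgeR). Both combination libraries lay below both nutlin libraries, as they did for 27.5% of the genes tested in K1. It was called lower, as were 1.52% of the genes tested in K1 (242 genes), and 1.08% of the 15900 genes had a change at or below it.

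How the drugs combined was described by the interaction. The interaction, which is the change with GSK2830371 in the presence of nutlin minus that in its absence, was −0.08 (95% interval −0.77 to 0.60) for TNFRSF19, 0.45 (−0.27 to 1.17) for ZBED2 and 0.18 (−0.40 to 0.76) for FGB in TPC1. For RHOJ in K1 it was −0.27 (−0.92 to 0.38). These values share the DMSO and GSK2830371 libraries with the choice and are a description. The interval of each includes 0 and extends beyond a 1.5-fold difference in at least 1 direction.

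**Figure D2:**
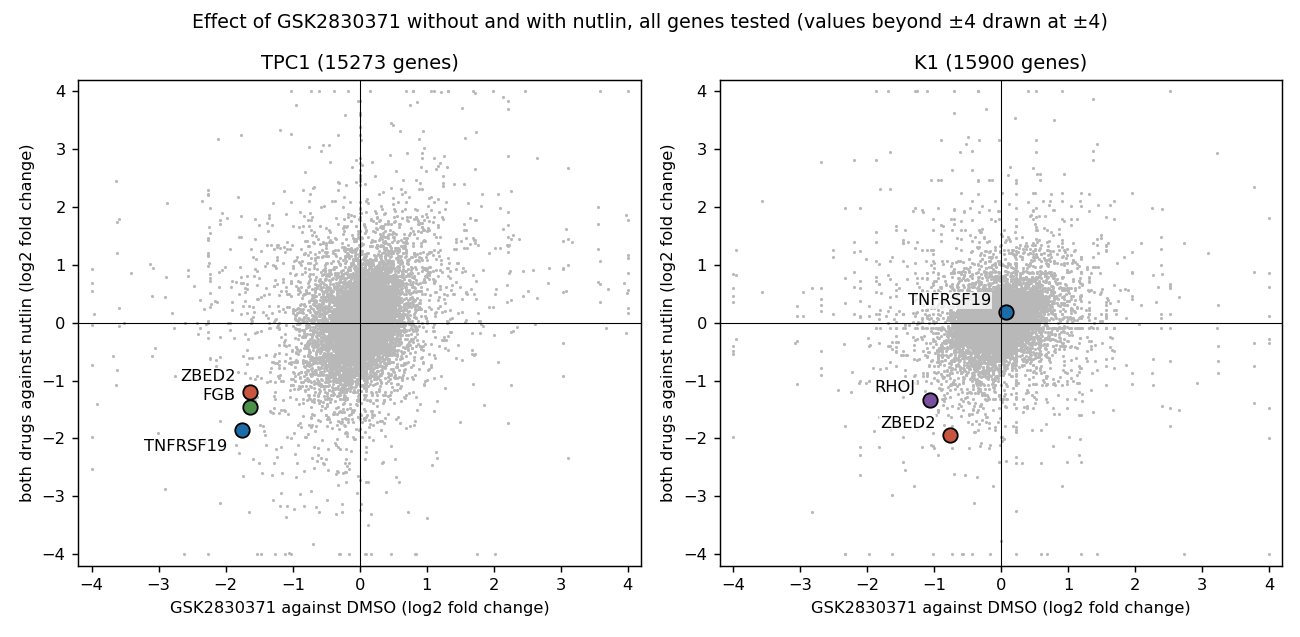
Log2 fold change of GSK2830371 against DMSO (horizontal axis) and of both drugs against nutlin (vertical axis), where each gray point is a gene tested in TPC1 (left, 15273 genes) or K1 (right, 15900 genes) and the colored points are the genes described. TNFRSF19, ZBED2 and FGB lie at the lower left in TPC1 and RHOJ and ZBED2 in K1, whereas TNFRSF19 in K1 lies near 0 on both axes.

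The genes lowered by GSK2830371 alone, those described here included in the line of their choice, were in part also lower with nutlin present. In TPC1, 53 of the 104 (51.0%) were also called lower with both drugs against nutlin, beside 5.66% of all genes tested. The 53 are 6.13% of the 865 genes lower in that comparison. The median log2 fold change of the 104 was −0.64, against 0.01 over all genes tested. In K1 it was 50 of 237 (21.1%), beside 1.52% of all genes tested. The 50 are 20.7% of the 242 genes, and the median of the 237 was −0.19 against 0.00. Between the lines, 5 genes were called lower by GSK2830371 alone in both. They are 5.50% of the 91 TPC1 genes tested in K1, where 1.49% of all genes were called lower. They are 2.27% of the 220 K1 genes tested in TPC1, where 0.681% of all genes were.

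A fall of TNFRSF19 with GSK2830371 was not detected in K1. There it was at 1.97 and 2.16 CPM in DMSO, 1.42 and 1.30 CPM in nutlin, 2.20 and 2.13 CPM in GSK2830371, and 1.89 and 1.21 CPM in the combination. The GSK2830371 libraries overlapped with those in DMSO, and the combination libraries, the widest apart, overlapped with those in nutlin. GSK2830371 gave a log2 fold change of 0.07 ± 0.207 alone (95% interval −0.38 to 0.51, adjusted p = 0.87, edgeR) and of 0.18 ± 0.241 on top of nutlin (−0.34 to 0.70, adjusted p = 0.69, edgeR). Neither interval reaches the fall in TPC1, where the gene was chosen for the depth of its fall.

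The difference between the lines was itself tested over all 16 libraries. The effect of adding GSK2830371 to nutlin on TNFRSF19 was 2.03 ± 0.339 log2 units higher in K1 than in TPC1 (adjusted p = 0.0015, edgeR), and TNFRSF19 was among the 2.56% of 16738 genes (428 genes) called higher in that test. The gene was chosen for its fall in TPC1, which favors a difference from a line where it was not chosen. Nutlin alone left 66.1% of the DMSO mean of TNFRSF19 in K1 (log2 fold change −0.60 ± 0.226, adjusted p = 0.061, edgeR), which did not pass the threshold. Both nutlin libraries lay below both DMSO libraries, as they did for 32.6% of the genes tested in K1. With nutlin against DMSO, 5.43% of genes were called lower in K1 and 18.0% in TPC1.

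ZBED2 was expressed at a lower level in K1, at 1.06 and 1.05 CPM in DMSO, 0.866 and 0.807 CPM in nutlin, 0.605 and 0.632 CPM in GSK2830371, and 0.279 and 0.151 CPM in the combination. These correspond to 37 and 39 counts in the DMSO libraries and to 9 and 5 in the combination, so the levels rest on few reads. The groups did not overlap and their means stood in the order DMSO, nutlin, GSK2830371, combination. Both GSK2830371 libraries lay below both DMSO libraries for 27.0% of the genes tested in K1. GSK2830371 alone gave a log2 fold change of −0.77 ± 0.287 (95% interval −1.38 to −0.15, adjusted p = 0.082, edgeR), which did not pass the threshold.

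With nutlin present, ZBED2 was called lower in K1 at 3.85-fold (−1.95 ± 0.380, adjusted p = 0.0051, edgeR), a change that 0.421% of the 15900 genes reached or exceeded downward. Without replicate 2 of the combination, the lower of the 2 libraries, the value was −1.57 with an adjusted p of 0.068. Against DMSO the combination lowered ZBED2 4.85-fold in K1 (−2.28 ± 0.354, adjusted p = 0.00015, edgeR), where 8.09% of genes were called lower, against 21.7% in TPC1. The interaction in K1 was −1.18 ± 0.492 (adjusted p = 0.16, edgeR) and was not called. Between the lines the effect of GSK2830371 on top of nutlin differed by −0.75 (95% interval −1.91 to 0.40, adjusted p = 0.47, edgeR), so a difference was not detectable at these counts.

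FGB and RHOJ were each nearly confined to the line in which they were chosen. FGB had 0 to 2 counts per library in K1, and its DMSO libraries summed to 1356 counts in TPC1 and 2 in K1. RHOJ had 0 to 2 counts per library in TPC1, and its DMSO libraries summed to 452 counts in K1 and 1 in TPC1. The choice asked for at least 5 CPM in the DMSO libraries of 1 line, so these counts are a description. In the combination FGB had 127 counts in TPC1 against 0 in K1, and in nutlin RHOJ had 214 counts in K1 against 0 in TPC1. With 0 set at 3 counts over the group, FGB was 27.2-fold higher in TPC1 and RHOJ 111-fold higher in K1. The lower 95% limits of these ratios were below that, at 21.8-fold for FGB and 89.4-fold for RHOJ. These limits cover counting error alone. A change with GSK2830371 could not be measured for FGB in K1 or for RHOJ in TPC1.

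TNFRSF19 and ZBED2 were also lower in K1 than in TPC1 in the nutlin libraries, by log2 fold changes of −1.68 ± 0.225 and −3.20 ± 0.262. Their choice asked for at least 5 CPM in TPC1, so these are given without a test, beside the 23.8% of 16738 genes that were called lower in K1 in those libraries.

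**Figure D3:**
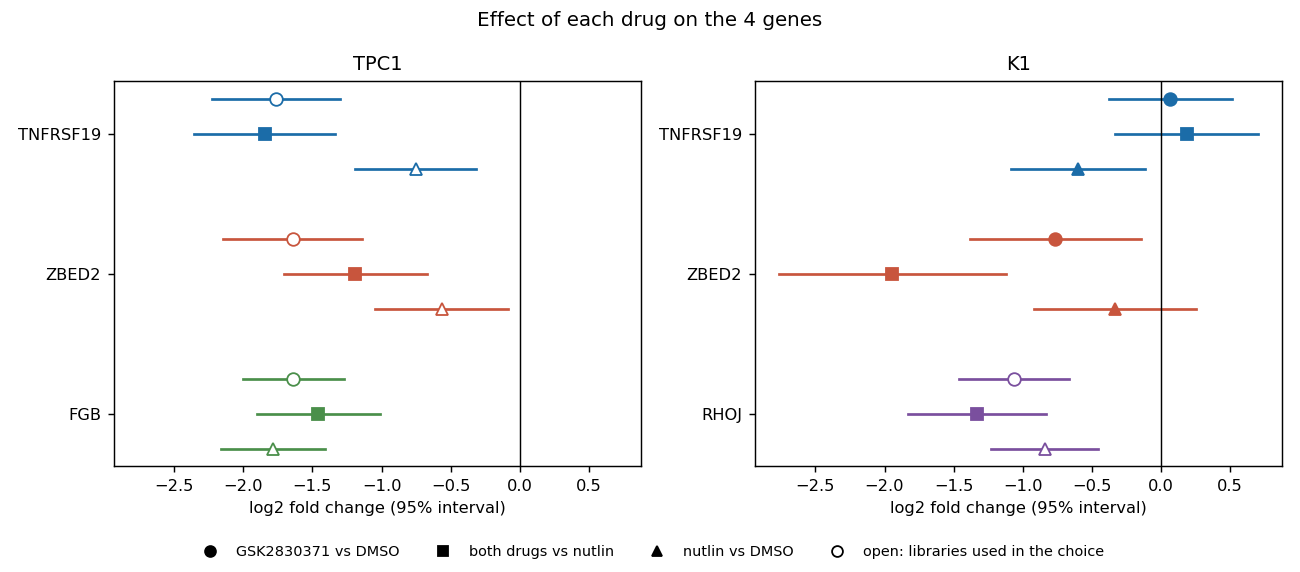
Log2 fold change with its 95% interval (horizontal axis) for the genes tested in TPC1 (left) and K1 (right), with circles for GSK2830371 against DMSO, squares for both drugs against nutlin and triangles for nutlin against DMSO. Open symbols use libraries that entered the choice; among the filled squares, TNFRSF19 is at −1.85 in TPC1 and at 0.18 in K1.

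The relatives of TNFRSF19 were examined for the same comparisons. Of 28 other TNF receptor superfamily genes, 22 were tested in TPC1, and with both drugs against nutlin 4 were higher and 1 was lower, where 6.46% of all genes were called higher and 5.66% lower. The higher ones were NGFR, the low affinity neurotrophin receptor (log2 fold change 2.84, from 0.678 to 4.65 CPM), TNFRSF9, the T cell costimulator 4-1BB (1.27), and the TRAIL receptors TNFRSF10D (0.59) and TNFRSF10A (0.59). TNFRSF11B, which encodes osteoprotegerin, was lower (−0.72). With GSK2830371 alone in TPC1, TNFRSF25 was the 1 gene called lower (−0.77) and none was higher, where 0.720% of all genes were called higher. The medians over the 22 were 0.27 with nutlin present and 0.01 without, against 0.01 and −0.01 over all genes.

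In K1, 21 of these receptors were tested. TNFRSF10A was higher with GSK2830371 alone (0.74), where 0.736% of all genes were called higher, and none was called with both drugs against nutlin, where 1.16% of all genes were higher. EDA2R, a close relative of TNFRSF19 and a p53 target, was at 14.0 ± 0.0324 CPM (SD, n = 2) in DMSO, 91.1 ± 3.66 in nutlin, 15.6 ± 0.829 in GSK2830371 and 126 ± 2.79 in the combination in TPC1. EDAR, the other close relative, had at most 18 counts in a TPC1 library and 0 in K1. Neither was called with GSK2830371 alone or with both drugs against nutlin, and EDAR was not tested in K1. With both drugs against nutlin in TPC1, EDA2R rose by 0.47 ± 0.0765 log2 units (adjusted p = 0.0027, edgeR), short of a 1.5-fold change.

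Of the 6 TRAF adaptors that carry signals from these receptors, TRAF1 (1.39) and TRAF4 (0.62) were higher with both drugs against nutlin in TPC1, where 6.46% of all genes were higher. None was called in that comparison in K1, or with GSK2830371 alone in either line. Among 15 feedback targets of Wnt/β-catenin signaling, 9 were tested in TPC1. TCF7 (−0.89) and LGR5 were lower and NKD2 (0.90) was higher with both drugs against nutlin, where 5.66% of all genes were lower and 6.46% higher. LGR5, a receptor of stem cell compartments, went from 0.271 CPM in nutlin to 0.00828 CPM in TPC1, and in K1 from 22.4 to 14.5 CPM (log2 fold change −0.63, adjusted p = 0.0018, edgeR), where 1.52% of all genes were lower. BAMBI was higher in K1 with GSK2830371 alone (0.79), where 0.736% of all genes were higher.

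Of 8 other ZBED genes, 7 were tested in TPC1 and 6 in K1. None was called with GSK2830371 alone in either line, and ZBED9 was higher with both drugs against nutlin in TPC1 (0.89), where 6.46% of all genes were higher. Of the 9 interferon regulatory factors, 6 were tested in each line. IRF9, a subunit of the interferon-activated complex ISGF3, was lower with both drugs against nutlin in TPC1 (−0.71, from 39.6 to 24.2 CPM) and in K1 (−0.61, from 14.6 to 9.58 CPM), where 5.66% and 1.52% of all genes were lower. IRF1, whose targets ZBED2 represses, was at 22.0 CPM in DMSO, 32.1 in nutlin, 17.5 in GSK2830371 and 40.2 in the combination in TPC1, and at 16.1 to 18.7 CPM in the 4 groups of K1. It was not called with GSK2830371 alone or with both drugs against nutlin in either line. With both drugs against nutlin in TPC1, IRF1 rose by 0.32 ± 0.102 log2 units (adjusted p = 0.045, edgeR), short of a 1.5-fold change. Its interaction in TPC1 was called higher (0.65 ± 0.146, adjusted p = 0.029, edgeR), as it was for 2.82% of all genes.

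FGB was expressed without its partner chains. FGA had at most 2 counts and FGG at most 4 counts in every library of both lines, against 127 to 1356 summed counts of FGB in the 4 groups of TPC1, and none of the 4 other fibrinogen and fibrinogen-like genes passed the filter. All 6 hepatocyte markers, among them ALB and TTR, were below 0.19 CPM in every library, and TTR had 0 counts. Of 20 acute-phase genes, 9 were tested in TPC1. SAA1, serum amyloid A (1.80, from 11.9 to 41.3 CPM), and HPX, hemopexin (1.12), were higher with both drugs against nutlin, where 6.46% of all genes were higher. None was called with GSK2830371 alone in either line, or with both drugs against nutlin in K1, where 6 were tested.

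Among 24 genes of IL-6 family signaling and hepatic transcription factors, 21 were tested in TPC1. IL6 and CEBPB were higher with GSK2830371 alone (0.71 and 0.77), where 0.720% of all genes were higher. With both drugs against nutlin 3 were higher and 3 lower, against 6.46% and 5.66% of all genes, the former being IL6 (1.46, from 39.4 to 109 CPM), IL11 (1.23) and CEBPB (0.96, from 101 to 197 CPM) and the latter including the receptor chains IL11RA (−0.62) and IL6R (−0.60). In the same comparison FGB was called lower, and a link between FGB and these genes was not tested. None of the 20 genes of the list tested in K1 was called with GSK2830371 alone or with both drugs against nutlin.

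Neither of the closest paralogs of RHOJ fell as deeply as RHOJ in K1. RHOQ was at 101 CPM in both DMSO and GSK2830371, 130 CPM in nutlin and 148 CPM in the combination, and CDC42 at 241, 226, 251 and 211 CPM in DMSO, GSK2830371, nutlin and the combination. Per kilobase of transcript, RHOJ in the DMSO libraries of K1 was at 3.42 CPM, RHOQ at 142 and CDC42 at 91.5. With both drugs against nutlin in K1, RHOQ was higher by a log2 fold change of 0.19 ± 0.054 (adjusted p = 0.04, edgeR). CDC42 was lower by −0.25 ± 0.0548 (adjusted p = 0.01, edgeR), and neither reached a 1.5-fold change.

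Of 23 effectors of CDC42 and RHOJ, all were tested in both lines. In TPC1, where RHOJ was not expressed, CDC42BPG was lower with GSK2830371 alone (−0.92), where 0.681% of all genes were lower. With both drugs against nutlin 3 effectors were higher and 2 lower, against 6.46% and 5.66% of all genes, with PARD6A at 1.09, CDC42EP3 at 0.79, CDC42BPG at −0.89 and the kinase PAK3 at −0.83. In K1, where RHOJ was expressed, IQGAP2 was lower with GSK2830371 alone (−0.94), where 1.49% of all genes were lower, and no effector was called with both drugs against nutlin.

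RHOJ is known from endothelial cells, so 6 endothelial markers were examined. PECAM1 had at most 3 counts and CDH5 at most 7 counts in a library of either line. KDR, a receptor of vascular endothelial growth factor, was at 3.07 to 7.63 CPM in K1. Each other marker was at most 0.770 CPM there. The sum of all 6 in K1, mostly KDR, was 8.28 to 8.84 CPM in DMSO and 5.89 to 8.12 in GSK2830371. It was 5.58 to 5.99 in nutlin and 4.37 to 4.74 in the combination. In TPC1, where RHOJ was not expressed, the sum was 1.17 to 1.18 CPM in DMSO and 0.849 to 1.14 in GSK2830371. There nutlin gave 1.72 to 1.90 and the combination 2.71 to 3.06. The part of these markers in the values of RHOJ was not tested.

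**Figure D4:**
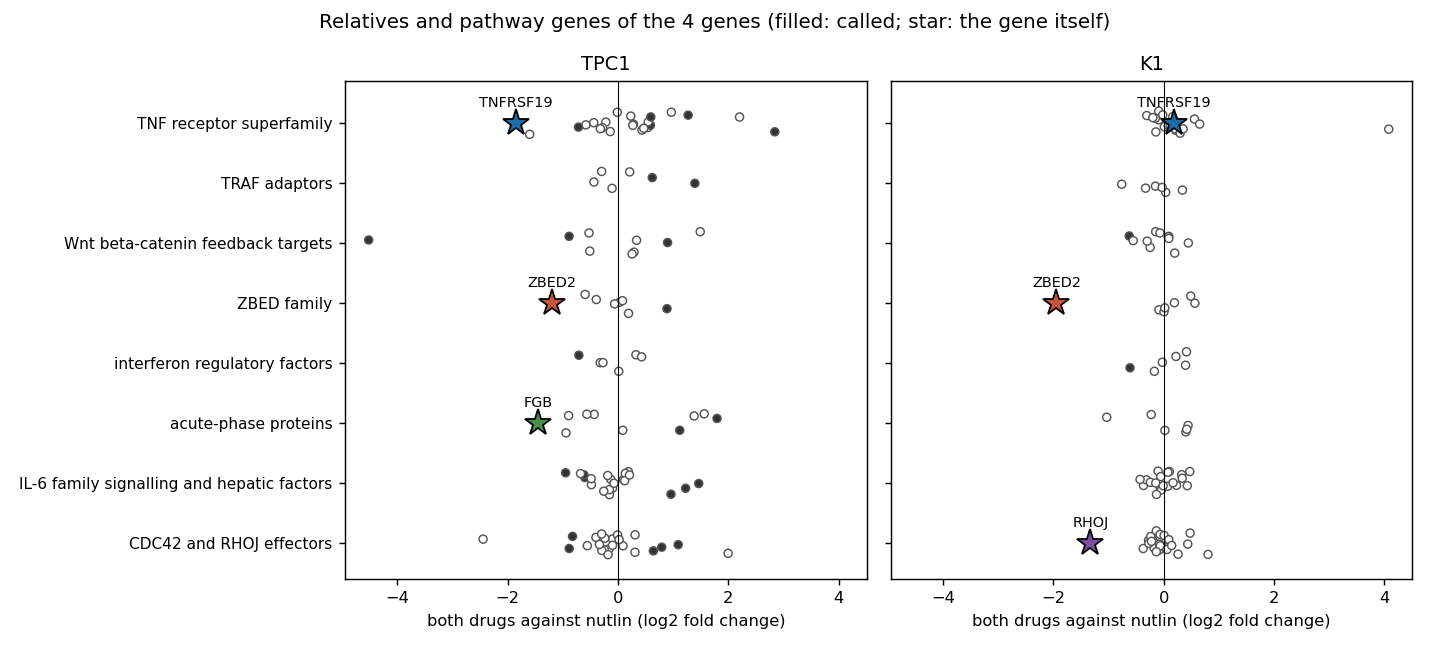
Log2 fold change of both drugs against nutlin (horizontal axis) for the tested relatives and pathway genes of each list in TPC1 (left) and K1 (right), with filled points for called genes and stars for TNFRSF19, ZBED2, FGB and RHOJ. The stars of TNFRSF19, ZBED2 and FGB in TPC1 and of ZBED2 and RHOJ in K1 lie left of 0, and TNFRSF19 in K1 lies at 0.18.

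The genes whose log2 levels followed each gene most closely over the 8 libraries of its line were found among 12307 genes in TPC1 and 12542 in K1 with a mean of at least 1 CPM. They are a description, since the libraries share their treatments and depths. TNFRSF19 was closest to KRT80, an epithelial keratin (Pearson r = 0.985), PLEKHA4 (0.979) and CCDC80 (0.979). KRT80 went from 129 CPM in DMSO to 94.6 in nutlin, 76.2 in GSK2830371 and 56.8 in the combination. ZBED2 was closest to FJX1 (0.984), ALDH18A1, an enzyme of proline synthesis (0.980), and ACTN1, an actin crosslinker (0.975). ALDH18A1 moved from 214 to 186 CPM between DMSO and the combination, far less than ZBED2.

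FGB was closest to DOLPP1 (0.997), the desmosomal plakophilin PKP3 (0.995) and TM4SF18 (0.990). PKP3 was at 41.3 CPM in DMSO, 24.0 in nutlin, 26.0 in GSK2830371 and 15.8 in the combination, so that it shared with FGB the near equal levels in the 2 single drugs. RHOJ was closest to PHLDB2, a protein of the cell cortex (0.977), LOC100129034 (0.976) and SIGLEC15 (0.975). SIGLEC15 was at 78.7 CPM in DMSO, 50.0 in nutlin, 44.8 in GSK2830371 and 28.1 in the combination. Between the genes described, r in TPC1 was 0.947 for TNFRSF19 and ZBED2, 0.914 for TNFRSF19 and FGB and 0.829 for ZBED2 and FGB. In K1 it was 0.870 for ZBED2 and RHOJ, 0.394 for TNFRSF19 and ZBED2 and 0.274 for TNFRSF19 and RHOJ. TNFRSF19, ZBED2 and FGB were chosen for falls in these same TPC1 libraries, which favors a high r between them there. TNFRSF19 and ZBED2 were not chosen in K1.

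Leaving out single libraries and changing the processing moved the values with nutlin present by less than their distance from 0 for 5 of the 6 that were tested. The range of log2 fold changes was −2.34 to −1.56 for TNFRSF19, −1.68 to −0.88 for ZBED2 and −1.83 to −1.23 for FGB in TPC1, and −1.69 to −1.06 for RHOJ and −2.45 to −1.57 for ZBED2 in K1. TNFRSF19 in K1 ranged from −0.18 to 0.47.

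**Figure D5:**
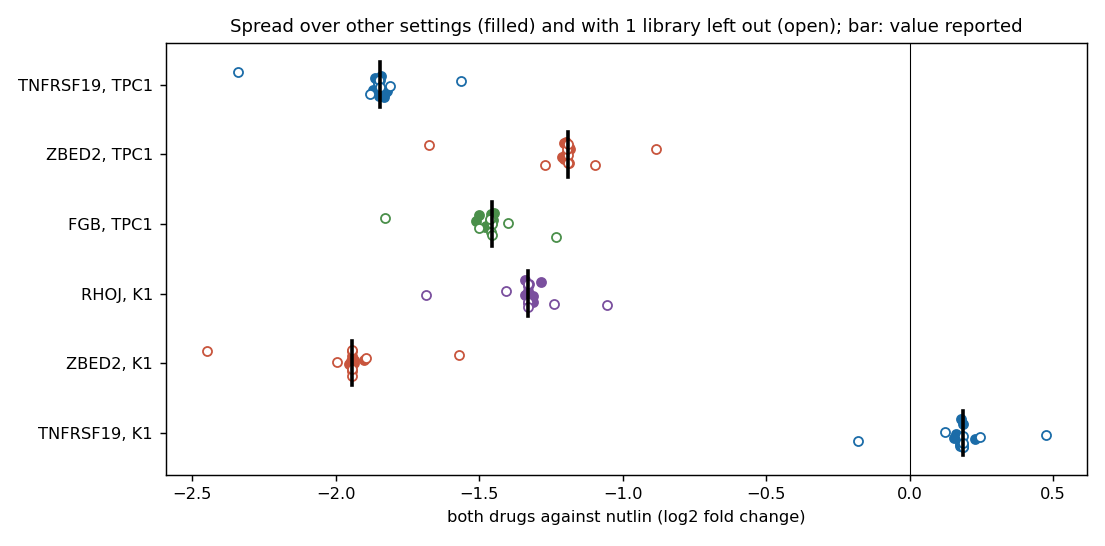
Log2 fold change of both drugs against nutlin (horizontal axis) for each gene and line, with filled points for another setting, open points for a fit without 1 library and a black bar for the value reported. The points of TNFRSF19, ZBED2 and FGB in TPC1 and of RHOJ and ZBED2 in K1 all lie left of 0, and those of TNFRSF19 in K1 lie on both sides of 0.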

How the data were processed

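RNA of TPC1 and K1 cells (2 lines, 4 treatments, 2 libraries per group) was sequenced. The authors selected polyadenylated RNA, aligned the reads to hg19 with TopHat2 2.0.13 and counted them per gene with HTSeq 0.6.1, counting by strand. The deposited values are raw counts per gene and library, without normalization. All 16 sample columns were used and 0 were left out. The second TPC1 library of each group is numbered 3 in the table but 2 in the sample titles and was assigned to its group alone.

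The members and gene lists were chosen with earlier results of these data known. Counts were scaled with TMM and fitted with edgeR 4.0.16 (quasi-likelihood, R 4.3.3), 8 libraries per line together and all 16 for differences between lines, with Benjamini-Hochberg adjustment over all genes tested. Genes passed with over 0.1 CPM in at least 2 libraries and were called at an adjusted p under 0.05 and a fold change above 1.5. Errors are SE of log2 fold changes, or SD of the 2 libraries. Named were the 4 genes, the first 5 of each line's lowered genes (5 CPM or more in DMSO, no overlap between groups), the 3 genes most correlated with each (log2 CPM, prior count 0.5), up to 4 called genes of each list that averaged 1 CPM or more in their higher group, and the nearest relatives, whatever their values. LGR5 in TPC1, below 1 CPM, and IL6R and IL11RA were named after their values were seen. Some relatives and neighbors of the 4 genes are not reported here. Other settings included DESeq2 1.42.0, other scalings and filters, a replicate block, removal of trends in GC content and in length (values for 80.1% of symbols) and the omission of each library. Replicates differed by more than counting noise in every group, so none was a repeated deposit. The code was tested on simulated data. Figures were drawn with matplotlib 3.10.9.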

Additional observations from a re-analysis of the deposited data

Results flagged for a closer look

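The effect of GSK2830371 on top of nutlin differed between TPC1 and K1 for TNFRSF19, by a test of the difference itself (2.03 log2 units higher in K1, 95% interval 1.31 to 2.75, adjusted p = 0.0015, edgeR). TNFRSF19 fell with both drugs against nutlin in TPC1 (−1.85) and gave 0.18 in K1. Over 24 alternatives the difference ranged from 1.67 to 2.53 and the adjusted p from 3.1e-07 to 0.021. TNFRSF19 was chosen for its fall in TPC1, which favors such a difference. The line, its medium and its libraries cannot be told apart here.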

How the results depend on the processing

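Of 1105 values recomputed under other settings, 1024 were counted as unchanged. Tested values had to keep their direction and side of the threshold, and described values to move by less than the replicate spread. Numbers of called genes had to stay within 1.5-fold, so a move of that size passes as unchanged. The calls of TNFRSF19, ZBED2 and FGB in TPC1 and of RHOJ in K1 with both drugs against nutlin held under every alternative, with adjusted p from 2.1e-10 to 0.0084, 3.8e-07 to 0.049, 3.4e-08 to 0.014 and 6.4e-07 to 0.046, and those of ZBED2 in K1 ranged from 0.00054 to 0.068. The cause of the following moves was not tested. The 104 genes lower with GSK2830371 alone in TPC1 became 177 with no filter and 55 with the compared groups alone, and from 8 to 125 with 1 library left out (8 without GSK2830371 replicate 3, 17 without replicate 1, 42 and 43 without nutlin replicates 3 and 1, 45 and 56 without DMSO replicates 3 and 1). The 237 in K1 became 49 with the GC and length trend removed, and 93 to 518 with 1 library left out (without GSK2830371 replicates 1 and 2), while RHOJ itself moved from −1.06 to −1.13 with that trend removed. The 242 genes lower with both drugs against nutlin in K1 became 140 to 252, the lowest without nutlin replicate 2. Of genes higher, the 110 with GSK2830371 alone in TPC1 became 166 with library size alone, 200 with no filter, 51 with the compared groups alone, 62 and 47 without DMSO replicates 1 and 3, 44 without either nutlin replicate, and 27 and 14 without GSK2830371 replicates 1 and 3, and the 117 in K1 became 58 with DESeq2 and 54 with the GC and length trend removed. With both drugs against nutlin, the 986 genes higher in TPC1 became 655 without nutlin replicate 3, and the 184 in K1 became 108 with DESeq2, 87 without nutlin replicate 2, and 113 and 105 without combination replicates 1 and 2. The 428 genes higher in K1 minus TPC1 became 267 without K1 nutlin replicate 1. With GSK2830371 alone, ZBED2 ranged from −1.86 to −1.50 and FGB from −1.80 to −1.52 in TPC1 with 1 library left out. ZBED2 with both drugs against nutlin in K1 ranged from −2.45 to −1.57. TNFRSF19 with both drugs against nutlin in K1 ranged from −0.18 (without combination replicate 1) to 0.47. Its interaction in K1 was 0.12, and −9.56e-05 with the GC and length trend removed, −0.00238 with that and the replicate block, and −0.24 to 0.41 with 1 library left out, the lowest without combination replicate 1. TNFRSF19 in K1 was called lower with nutlin against DMSO in 5 of 18 alternatives.

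Replicate numbers marked no stated batch, and the replicate differences of the groups correlated at 0.451 to 0.625 in TPC1 and −0.320 to 0.334 in K1. In TPC1 the replicate number also went with depth, at 30789887 to 36896529 counts in replicate 1 and 62853375 to 76648552 in replicate 3. The main fits did not include the replicate number. With the replicate block, 241 genes were lower and 239 higher with GSK2830371 alone in TPC1, 227 and 214 with the GC and length trend removed too, and 46 and 52 in K1 with both. With both drugs against nutlin the block gave −1.83 for TNFRSF19, −1.19 for ZBED2 and −1.45 for FGB in TPC1, and changed no call of the 4 genes. With the DMSO numbers of K1 crossed, a choice made after seeing the data, the block gave 286 genes lower and 157 higher with GSK2830371 alone.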
